A study of Mus musculus with 10 samples.

Results

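The primary, or azurophil, granule genes examined here were *Mpo*, *Elane*, *Prtn3*, *Ctsg*, *Ms4a3* and *Serpinb1a*. They were chosen by gene symbol, and all 6 were found among the 13091 genes that each of the 4 deposited tables lists. The RNA came from neutrophils differentiated in culture from HoxB8-immortalized bone marrow progenitors of strain 129-SVEV mice. Each line is 1 clone, kept dividing by a HoxB8 that needs estrogen, and matures once estrogen is withdrawn. The labels give 4 groups of poly(A) RNA libraries, 10 in all. The *Vim+/+* neutrophils (labelled WT) gave 2 unstimulated libraries and 2 after 25 ng/mL LPS for 1 hour. The *Vim-/-* neutrophils gave 3 libraries under each treatment. The labels number the libraries of a group as biological replicates and do not say whether each number is a separate clone. The labels call the *Vim-/-* cells a vimentin knockdown, whereas the study derived them from vimentin knockout mice.

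One quantity per gene was used, the authors' mean over the libraries of the normalized count (baseMean). It was the same in the 4 tables for every gene, with a largest difference of 0. It pools both genotypes and both treatments, so it has no value per library, no spread and no n of its own. The remaining columns hold the authors' own genotype and LPS comparisons and were not used here. What follows therefore describes how strongly the primary granule genes were represented in these neutrophils as a whole, and no difference between genotypes or with LPS was tested. Because the spread between libraries is not known, no order of genes given below could be tested against it. Library depth is unknown. The means of all genes summed to 55507688 with a median of 907.

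Primary granules are the first granules a developing neutrophil makes, at the promyelocyte stage, and hold myeloperoxidase and a set of serine proteases that are stored in active form. Their genes are usually transcribed in progenitors and shut down before the secondary and tertiary granule genes reach their peak, so their messages mark an early stage of granulocyte maturation. Of the 6 genes, *Mpo* encodes the peroxidase that makes hypochlorous acid. *Elane*, *Prtn3* and *Ctsg* encode the proteases neutrophil elastase, proteinase 3 and cathepsin G. *Ms4a3* and *Serpinb1a* encode no granule enzyme. *Ms4a3* encodes a membrane protein of granulocyte and monocyte progenitors, and *Serpinb1a* a cytosolic serpin that inhibits these proteases.

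The 3 proteases are related, so the coding stretch around their active-site serine is shown first, since reads from near-identical copies could be assigned to the wrong gene. The sequences are those of the GENCODE M21 transcripts on GRCm38, the build equivalent to mm10. Each line has 42 bases, 5′ to 3′ along the transcript, and the 18 capitals mark the codons of the conserved motif GDSGGP, whose serine is the active-site residue.
Elane: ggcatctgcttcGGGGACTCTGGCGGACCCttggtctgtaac
Prtn3: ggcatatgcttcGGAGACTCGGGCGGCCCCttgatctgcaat
Ctsg: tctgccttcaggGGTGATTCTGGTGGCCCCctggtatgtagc
In all 3 genes this stretch runs from exon 4 into exon 5 of 5. It spans chr10:79887788-79887946 on the plus strand for *Elane*, chr10:79882154-79882847 on the plus strand for *Prtn3* and chr14:56100121-56100554 on the minus strand for *Ctsg*, introns included. Between *Elane* and *Prtn3* 7 of the 42 bases differed, 3 of them in capitals. *Ctsg* differed from *Elane* at 16 bases and from *Prtn3* at 20 bases, with 4 in capitals in each pair.

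Over the whole coding part, *Elane* and *Prtn3* had 62.5% identical bases among 750 aligned, and their longest identical run was 17 bases. *Elane* and *Ctsg* had 55.7% and *Prtn3* and *Ctsg* 52.9%. In 1 coding transcript each of *Elane*, *Prtn3*, *Ctsg* and *Ms4a3*, none of the 25-base words (960, 1001, 978 and 986 words) occurred in a transcript of another gene on either strand, and the exons of that transcript overlapped those of no other gene. Over all annotated transcripts, a search added after the data were seen, this held for *Elane* and *Ctsg*. Exons of other *Prtn3* transcripts shared 159 bases with *Plppr3* on the opposite strand, and 6.45% of its 50-base words were shared with that gene. *Ms4a3* shared 2.61% of its 25-base words with other genes and 0 of its 50-base words. Sharing was also found in the coding transcripts of *Mpo* and *Serpinb1a*. The exons of *Mpo* shared 512 bases with *Gm11505*, which lies on the opposite strand, and 323 of its 2701 words of 50 bases were shared with that gene. Whether the authors counted by strand is not stated, so it is not known whether reads of *Mpo* and *Gm11505* were told apart there. *Gm11505* was not analysed here. Over all annotated transcripts of *Mpo*, 13.2% of the 25-base words were shared with 492 other genes. Of its 50-base words, 9.46% were shared with 30 other genes. *Serpinb1a* shared 17.6% of its 25-base words and 3.42% of its 50-base words with its paralogs *Serpinb1b* and *Serpinb1c* and the pseudogene *Serpinb1-ps1*. Over all annotated transcripts of *Serpinb1a* the shares were 14.9%, with 305 other genes, and 2.81%, with 3 other genes. Its coding part was 90.4% identical to that of *Serpinb1b* and 89.7% to that of *Serpinb1c*, neither of which was analysed here. The mean of *Serpinb1a* is uncertain to the extent that such reads were dropped or assigned to another copy. How reads that match more than 1 gene were treated is not stated.

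*Mpo* lies on chromosome 11 of GRCm38 from 87793581 to 87804413 on the plus strand and has 14 exons in its principal transcript. Its mean normalized count was 121760.2, which placed it at rank 36 of the 13091 genes and made up 41.6% of the summed mean of the 6 genes. *Prtn3*, on chromosome 10 from 79874476 to 79883174, had a mean of 64170.0 (rank 89). *Elane*, on the same strand of chromosome 10 from 79886247 to 79888215, had a mean of 21946 (rank 408). *Ctsg*, on the minus strand of chromosome 14 from 56099881 to 56102574, had a mean of 11485 (rank 909). *Ms4a3*, on the minus strand of chromosome 19 from 11629496 to 11640851, stood at 21312 (rank 428). *Serpinb1a*, on the minus strand of chromosome 13 from 32842092 to 32851185, stood at 51729.8 (rank 123). Together the 6 genes held 292403 of the summed mean normalized count, or 0.527%, and 5 of them were among the 5% of genes with the highest mean, *Ctsg* being the exception at the 93.1st percentile.

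A longer transcript yields more fragments, so the mean of each gene was also divided by the length of its longest annotated transcript in kilobases, and by the principal transcript or coding part where stated. On this scale *Prtn3* was highest, with a level of 62605 per kilobase, and *Mpo* followed with 44276. *Serpinb1a* stood at 26971, *Elane* at 22303, *Ms4a3* at 14179.6 and *Ctsg* at 11462. The 6 levels thus covered a 5.46-fold range from *Ctsg* to *Prtn3*. All 6 were among the 5% of genes with the highest level per kilobase, between the 97.4th and the 99.7th percentile of the 12021 genes with a length. With the coding part as the length, *Ctsg* stood at rank 664 of 11169 genes and fell outside the highest 5%. Against the median gene, at 309 per kilobase, *Prtn3* was 202-fold, *Mpo* 143-fold and *Ctsg* 37.0-fold higher.

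**Figure D1:**
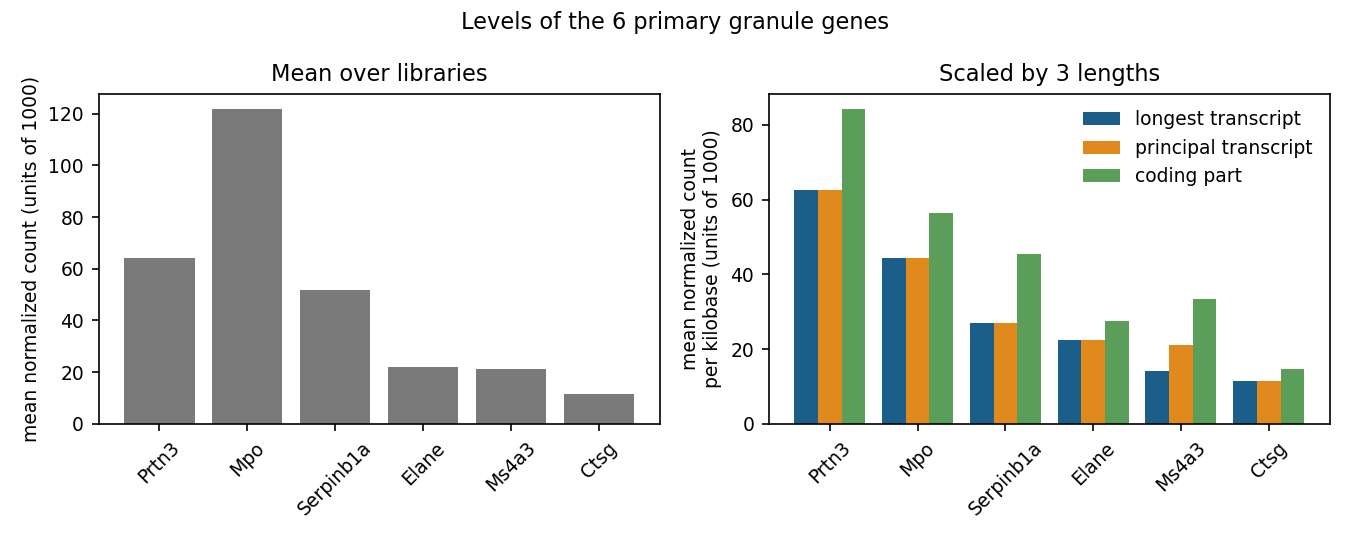
Left, the authors' mean normalized count over the libraries (in units of 1000) of the 6 primary granule genes. Right, the same mean per kilobase (in units of 1000) with the longest transcript, the principal transcript or the coding part as the length. Bars are single pooled values without an error. *Mpo* is highest before scaling at 121760.2, and *Prtn3* with each of the 3 lengths.

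The 3 serine proteases were not represented alike. *Prtn3* was 2.81-fold higher per kilobase than *Elane* and 5.46-fold higher than *Ctsg*, and *Elane* was 1.95-fold higher than *Ctsg*. Of their summed level of 96369.6 per kilobase, *Prtn3* made up 65.0%, *Elane* 23.1% and *Ctsg* 11.9%. This order held with the coding part as the length, where the ratios were 3.05, 5.74 and 1.88. *Mpo* stood between the proteases, 1.99-fold above *Elane* and with *Prtn3* 1.41-fold above it. *Ms4a3* had no fixed place in the order. Its longest transcript has 1503 bases and its principal transcript 1010, and *Elane* was 1.57-fold higher than *Ms4a3* with the first length, 1.06-fold with the second and 0.828-fold with the coding part.

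**Figure D2:**
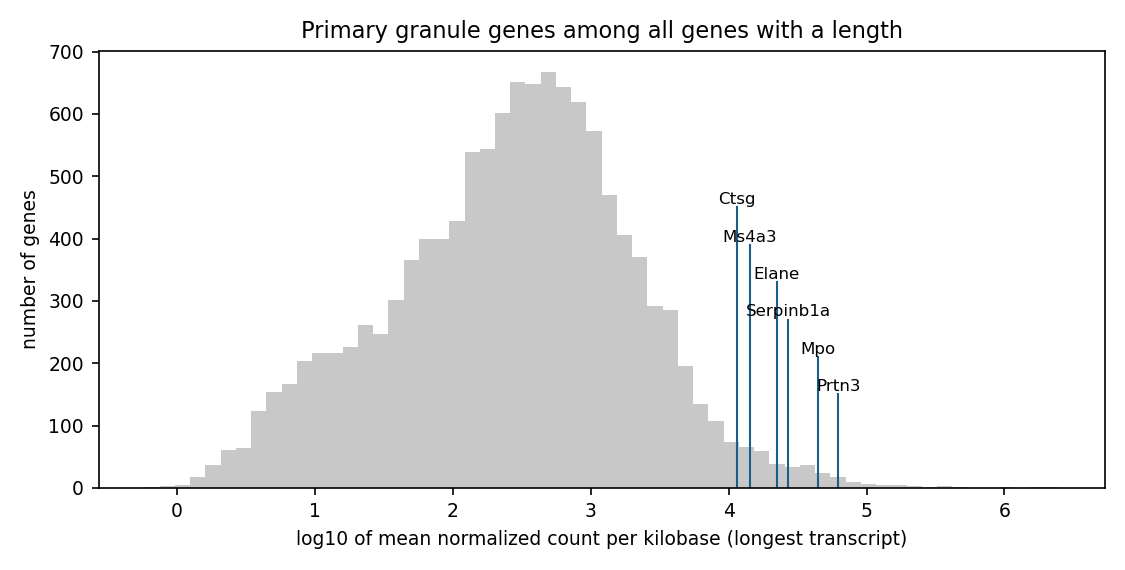
Number of genes (vertical axis) by the log10 of the mean normalized count per kilobase of the longest transcript (horizontal axis), for the 12021 genes with a length. Lines mark the 6 primary granule genes, which all lie in the right tail, from *Ctsg* at 11462 to *Prtn3* at 62605 per kilobase. The height of a line carries no value.

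*Serpinb1a* was examined beside the genes that process, store or inhibit the proteases. The summed level of the 3 proteases was 3.57-fold that of *Serpinb1a* per kilobase, and 2.78-fold with the coding part as the length. *Srgn*, the proteoglycan serglycin that retains proteases in the granule, stood at 61606 per kilobase, 0.984-fold the level of *Prtn3*, but at 2.77-fold with the coding part as the length. *Ctsc*, the dipeptidyl peptidase that activates the stored proteases by trimming their amino terminus, stood at 4542, below each of the 6 genes. *Slpi*, a secreted inhibitor of elastase and cathepsin G, stood at 17663. The stefins, which inhibit cysteine rather than serine proteases, included *Stfa2l1* at 326689 and *Stfa2* at 177247, but also *Stfa1* at 516. Stefin genes are a multigene family whose reads may have been dropped or assigned to another copy, so their values are uncertain. *Serpina3n* stood at 41.3 and *Serpinb6a* at 654. Of the 13 genes on this list 9 had a value, 8 of them above the median gene, with a list median of 17663 per kilobase. *Serpina1a*, *Serpina1b*, *Serpinb1b* and *Serpinb1c* were not analysed here.

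The 5 genes listed as other constituents of the primary granule ranged far more widely than the 6 genes. *Lyz2* and *Bpi* set the ends of that range. *Lyz2*, the lysozyme of myeloid cells, which is also stored in later granules, stood at 402685 per kilobase, 6.43-fold the level of *Prtn3* and 14.2-fold with the coding part as the length. The membrane protein gene *Cd63* stood at 15026 with its longest transcript, at 39212 with the principal transcript and at 60905 with the coding part. The lysosomal glycosidase genes *Man2b1* and *Gusb* stood at 15492 and 3022. *Bpi*, which encodes a bactericidal protein, had a mean normalized count of 24.7 and 12.8 per kilobase, at the 8.98th percentile. Whether these mouse neutrophils store its protein in primary granules was not tested. These 5 genes had a median of 15026 per kilobase, against 24637 for the 6 genes, which include *Ms4a3* and *Serpinb1a* that encode no granule enzyme. Of the 5, 3 were among the 5% with the highest level, *Gusb* and *Bpi* being the others.

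The later granule genes give a scale for the 6 genes, since they are transcribed at the myelocyte stage and after. All 7 secondary granule genes had a value and were among the 5% of genes with the highest level, and their median was 133544 per kilobase. *Ngp* was highest at 906294, 14.5-fold the level of *Prtn3* and 26.2-fold with the coding part as the length. The lactoferrin gene *Ltf* stood at 158954, 3.59-fold above *Mpo*, with *Lcn2* at 218968, *Camp* at 133544 and *Chil3* at 82616. *Mmp8* at 28335 and *Cd177* at 23958 lay within the range of the 6 primary granule genes. Of the tertiary granule genes, *Mmp9* stood at 48261, *Adam8* at 16413 and *Slc11a1* at 1184, and *Mmp25* was not analysed here. The median level per kilobase of the 7 secondary granule genes was thus above that of each of the 6 primary granule genes.

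**Figure D3:**
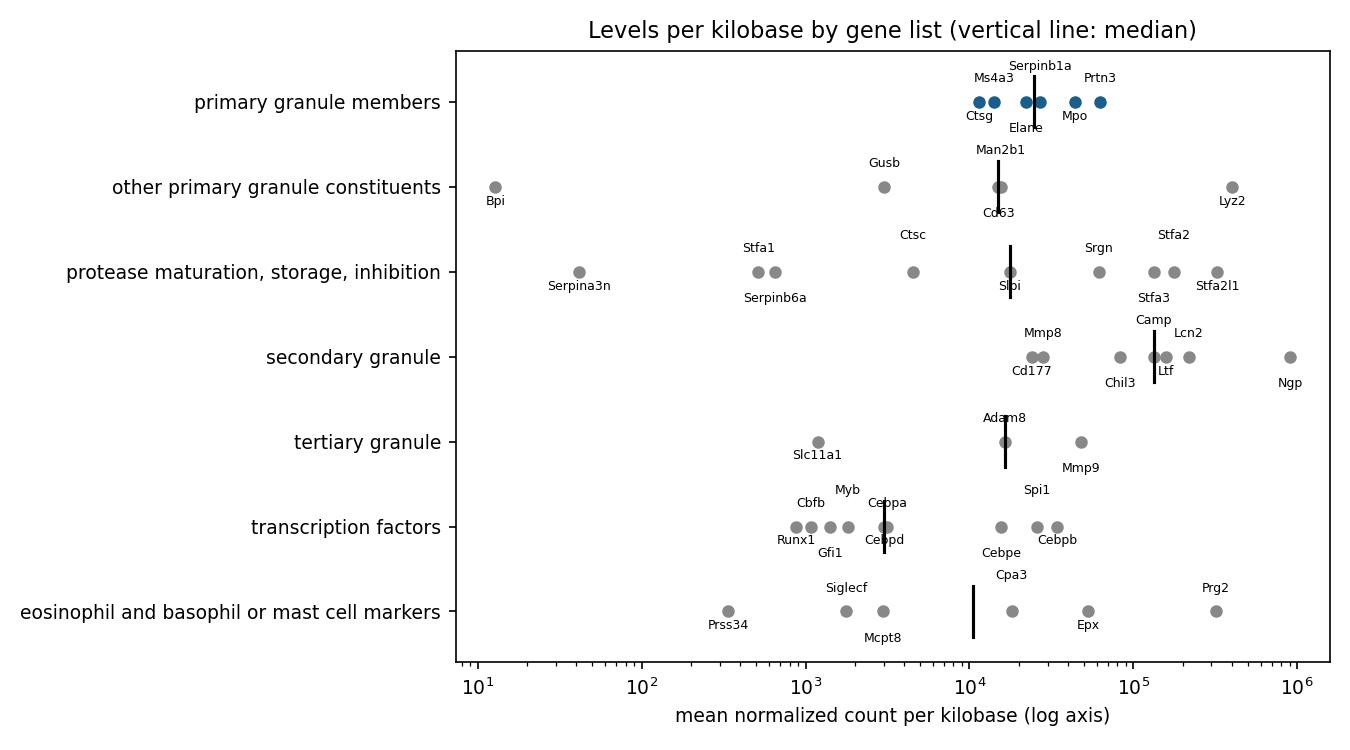
Mean normalized count per kilobase of the longest transcript (horizontal log axis) for the genes of 7 lists, 1 point per gene with its symbol. Black lines mark list medians, 24637 for the 6 primary granule genes (blue) and 133544 for the secondary granule genes. The 6 genes lie in a narrower band than the 5 listed as other constituents. Those run from *Bpi* at 12.8 to *Lyz2* at 402685.

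Transcription of *Mpo*, *Elane* and *Prtn3* in progenitors depends on C/EBP factors, PU.1, the RUNX1 complex and MYB. The list of 9 transcription factor genes also holds *Gfi1*, which is not among the factors just named. All 9 genes had a value, each above the median gene. *Cebpb* stood at 34239 per kilobase, *Spi1*, which encodes PU.1, at 25805 and *Cebpe*, the factor of the later granule stages, at 15629. *Cebpa*, which drives the step from which primary granules form, stood at 3139.6, and *Cebpd* at 3029. *Myb*, a gene of dividing progenitors, stood at 1806, *Gfi1* at 1418, *Cbfb* at 1077 and *Runx1* at 879.7. The list median was 3029, and 3 of the 9 genes were among the 5% with the highest level. With the coding part as the length the list median was 7655, and the order of the genes changed. *Spi1* then stood at 64323, above *Cebpb* at 57989.7. *Cebpe* stood at 23008, *Cebpd* at 14113, *Cebpa* at 7655, *Cbfb* at 5551, *Runx1* at 3696, *Myb* at 2944 and *Gfi1* at 2765.

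The position of the 6 genes was compared with the levels of the protein-coding genes within 100 kb. *Prtn3* and *Elane* are separated by 3.07 kb on the same strand. Of their other neighbours with a value, the highest was *R3hdm4* at 5204 per kilobase, and *Prss57*, which encodes a further serine protease of neutrophil granules, stood at 1764. The complement factor D gene *Cfd*, 2.64 kb from *Elane*, was not analysed here. *Ctsg* lies among mast cell protease and granzyme genes, of which *Mcpt8* stood at 2965, *Mcpt2* at 372 and *Mcpt4* at 11.3. *Ms4a3* lies among other *Ms4a* genes, and there *Ms4a2* stood at 248, *Ms4a6d* at 98.9 and *Ms4a6b* at 2.87. Near *Serpinb1a* 1 of 4 neighbours had a value, *Wrnip1* at 259. In these 5 neighbourhoods no neighbour outside the 6 genes had a level above that of the granule gene. The exception was *Mpo*, where *Epx*, 59.6 kb away, was higher. Each of the 6 genes lies at the 97.4th percentile or above among all genes with a length. Few neighbours could therefore be higher at any position, and the neighbours with a value were few (12 for *Prtn3*, 11 for *Elane*, 3 for *Ctsg*, 4 for *Ms4a3*). The comparison says nothing about position beyond these ranks.

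**Figure D4:**
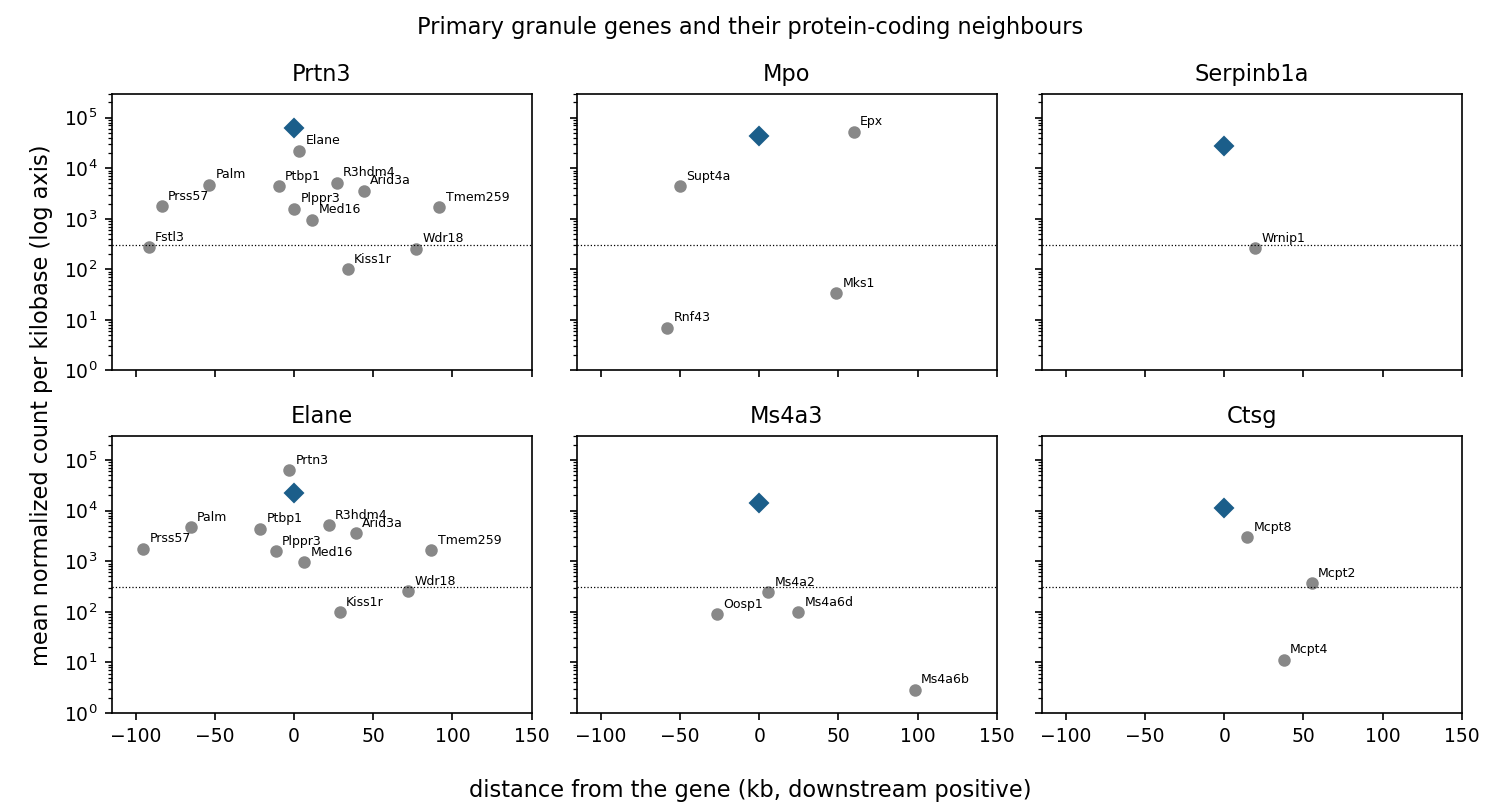
Mean normalized count per kilobase (log axis) of each primary granule gene (blue diamond at 0) and of the protein-coding genes within 100 kb (grey points), by distance between gene ends in kb, downstream positive. The dotted line is the median gene at 309. *Elane* and *Prtn3* appear in each other's panels, and *Epx* is the only other neighbour above its granule gene.

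*Epx*, the eosinophil peroxidase and closest relative of *Mpo* among the genes compared, had a mean normalized count of 142776 and a level of 53096 per kilobase, 1.20-fold that of *Mpo* and 0.848-fold that of *Prtn3*. The coding parts of *Mpo* and *Epx* were 70.4% identical, and 2 of the 2726 words of 25 bases in *Mpo*, and none of 50 bases, occurred in *Epx*. *Prg2*, which encodes the major basic protein of eosinophil granules, stood at 320189 per kilobase, 7.23-fold above *Mpo*. *Cpa3*, a gene of mast cells and basophils, stood at 18148, above *Ctsg*, and above *Ms4a3* with the longest transcript but below it with the principal transcript (18148 against 21101) and the coding part (21020.2 against 33352). Of the other genes on this list *Mcpt8* stood at 2965, *Siglecf* at 1764 and *Prss34* at 338, so all 6 of its genes were above the median gene. These values go beside the label of the cells, which names neutrophils alone. In RNA of bulk cultures, fewer cells of a type and less RNA per cell cannot be told apart, and the part of eosinophil, basophil or mast cell messages in the levels of the 6 genes was not tested.

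The label was also checked against a list of neutrophil marker genes, not all of which are exclusive to neutrophils. All 8 had a value, from *S100a9* at 2487149 per kilobase, the highest level of all genes, and *S100a8* at 1883886, through *Itgam* at 24477, *Csf3r* at 14713, *Ly6g* at 12086 and *Cxcr2* at 11905, to *Fcgr4* at 5535. Among progenitor genes, *Cd34* stood at 837, *Kit* at 205, *Sox4* at 17.9 and *Mycn* at 7.87, so 1 of the 4 with a value was above the median gene, and *Flt3* was not analysed here. Monocyte and macrophage genes ran from *Ly6c2* at 9881, which neutrophil precursors also express, and *Adgre1* at 3111 to *Csf1r* at 695, *Ccr2* at 219 and *Cx3cr1* at 8.59. Of 11 B cell, T and NK cell and erythroid genes 1 had a value, *Cd79a* at 57.5. With the longest transcript as the length, each of the 6 primary granule genes had a level above that of every progenitor and every monocyte and macrophage gene on these lists. With the principal transcript *Ly6c2* was the exception, at 32214, above all but *Mpo* and *Prtn3*, and with the coding part it stood at 67379, above all but *Prtn3*.

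In the list of all genes by mean normalized count, without scaling by length, the genes next to *Mpo* were *Pglyrp1*, *Calr*, *Gpi1* and *Ccl6*, with means from 118963 to 124591. Those next to *Prtn3* were *ND1*, *Thbs1*, *H3f3a* and *Iqgap1*, and those next to *Serpinb1a* were *Spi1*, *Rps2*, *Cebpb* and *Csf3r*. *Elane* stood between *Ikzf1* and *Kctd20*, *Ms4a3* between *Sf3b1* and *Sdf4*, and *Ctsg* between *Anp32a* and *Adgre5*. The next ones out were *Rpl18* and *Txn1* for *Elane*, *Cd84* and *Vcp* for *Ms4a3*, and *Btf3* and *Sec61a1* for *Ctsg*. Likeness here is closeness in 1 pooled mean and not in a pattern across samples.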

How the data were processed

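RNA sequencing of 10 libraries was deposited as 4 tables. Per the labels and the study's methods, the authors used Cutadapt 4.4 for trimming, STAR 2.7.10b for alignment and counting on mm10, and DESeq2 1.26.0 for the model, to which 4 RUVSeq covariates were added. The counting annotation and strand setting are not given in the sources used here. The signal used, baseMean, is the authors' mean over libraries of counts normalized by DESeq2. The authors' fold changes, standard errors, Wald statistics, p-values and the labels made from them fill the other columns and were not used. No values per library were used, so the planned count model, the replicate block and leaving out replicates could not be fitted. Depth is unknown, and no interval is given.

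Means were divided by the length of the longest GENCODE M21 transcript (GRCm38), with 12021 genes matched by symbol (91.8%), and, as alternatives, by the principal transcript or coding part. Percentiles give the share of genes below a value. Coding parts were aligned globally (match 1, mismatch -1, gap opening -5, gap extension -1), and words of 25 and 50 bases were searched in all transcripts on both strands. The planned protein alignment was not made. Ranks were checked on simulated data. Python 3.11.15, pandas 2.3.3, numpy 2.4.6, Biopython 1.88 and matplotlib 3.10.9 were used. The 6 genes and the 12 other lists were chosen with earlier results of these data known. Genes named are those of these lists, the paralogs *Serpinb1b* and *Serpinb1c*, and the 2 genes above and below each of the 6 in the ranking. Genes within 100 kb and those sharing sequence were added after the values were seen. A further gene planned for the list of other granule constituents is not reported here.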

Additional observations from a re-analysis of the deposited data

How the results depend on the processing

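No paired analysis was possible because the means used pool all libraries and carry no replicate number, and no library could be left out for the same reason. The values have no spread, so any shift counts as a move. With the coding part as the length, the levels per kilobase were 56527 for *Mpo*, 27605 for *Elane*, 84213 for *Prtn3*, 14668 for *Ctsg*, 33352 for *Ms4a3* and 45497 for *Serpinb1a*, and *Ms4a3* then stood above *Elane*. With the principal transcript *Ms4a3* moved to 21101 and the other 5 levels did not move. Among the 10321 genes with a mean normalized count of at least 100, the percentiles by mean were 99.7 for *Mpo*, 96.0 for *Elane*, 99.1 for *Prtn3*, 91.2 for *Ctsg*, 95.9 for *Ms4a3* and 98.8 for *Serpinb1a*. Ranked per kilobase among all 12021 genes with a length, they were 99.4, 98.6, 99.7, 97.4, 97.8 and 98.8 in the same order. The summed share of the 6 genes was 0.598% without the 10 genes of highest mean and 0.531% without the 13 mitochondrially encoded genes, an alternative added after the data were seen because 0 symbols carried the mt- prefix, so that leaving out that prefix did not move the share. Depth per library is unknown.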
